A study of Mus musculus with 8 samples.

Results

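Genes for antioxidant and glutathione enzymes were compared in the brown adipose tissue of Null mice (mmu-mir-193b -/-), in which the linked microRNAs mir-193b and mir-365-1 are deleted, and of WT mice (mmu-mir-193b +/+). Genes were taken by symbol: the glutathione transferases, glutathione peroxidases, peroxiredoxins, superoxide dismutases and thioredoxin reductases, together with Cat, Gclc, Gclm, Gss, Gsr, Txn1, Txn2, Nqo1 and Hmox1. This rule found 54 of the 22552 genes in the deposited table. The mice of both genotypes were 2 months old and of a mixed 129SV::FVB/N::C57BL/6 background, and the parents of the line carried an MMTV-Cre transgene that was bred out. The labels describe 3 Null and 3 WT mRNA libraries, which the authors had combined into 1 value per genotype, here the Null pool and the WT pool. The values are FPKM, fragments normalised to transcript length and to library size, so that levels of different genes can be set side by side. No spread between mice can be computed from 1 value per genotype. No difference below therefore has a replicate check, an SD or a test, and sequencing depth is unknown for the mRNA data.

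Brown fat, the tissue with which mice make heat without shivering, burns fatty acids at a high rate, and its mitochondria release superoxide as a by-product. Superoxide dismutases turn superoxide into hydrogen peroxide, which catalase, the glutathione peroxidases and the peroxiredoxins reduce to water. Most glutathione peroxidases draw electrons from glutathione, and most peroxiredoxins draw them from thioredoxin. Glutathione and thioredoxin are recharged with NADPH by glutathione reductase and the thioredoxin reductases. Cytosol and mitochondria hold separate sets of these enzymes: Sod1, Prdx1, Prdx2, Txn1 and Txnrd1 act mainly in the cytosol, and Sod2, Prdx3, Txn2 and Txnrd2 in mitochondria. Glutathione transferases join glutathione to reactive lipids and foreign compounds.

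The genotype was visible in the small RNA libraries, 1 per genotype. miR-193b-3p was at 11.5 RPM, the authors' unit of reads scaled to a library total, in the Null library and 3705 RPM in the WT library. miR-365-3p, which is also made from a second gene outside the deleted cluster, was at 798 RPM in Null and 1442 RPM in WT. The mature microRNAs of the cluster are shown here 5′ to 3′, as listed by RefSeq for build GRCm38.p6, with the seed, bases 2 to 8, in capitals, since deletion of their genes defines the Null group.
miR-193b-3p: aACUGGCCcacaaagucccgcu
miR-365-3p: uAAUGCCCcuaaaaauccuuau
All 7 fat and all 10 brown fat markers listed were measured, and they went both ways. Of the fat markers 6 were higher in Null and 1 lower, and of the brown fat markers 4 were higher and 6 lower, with median log2 ratios of Null over WT of 0.34 for the fat and -0.080 for the brown fat markers as deposited. The 2 most abundant of each list by the mean of both pools were higher in Null, with Fabp4 at 34679 FPKM in Null and 27295 FPKM in WT, Cfd at 2672 FPKM in Null and 1334 FPKM in WT, Cox8b at 11163 FPKM in Null and 6407 FPKM in WT, and Cox7a1 at 5343 FPKM in Null and 2634 FPKM in WT. Ucp1, the uncoupling protein that releases heat, was at 2487 FPKM in Null and 3016 FPKM in WT. Elovl3, which lengthens fatty acids, was at 17.5 FPKM in Null and 88.3 FPKM in WT, and the fat droplet gene Plin1 at 399.8 FPKM in Null and 585 FPKM in WT. The columns summed to 590327 FPKM in Null and 508701 FPKM in WT. Scaling both to the same sum moved the median log2 ratio of all genes from 0.0056 to -0.18, so small differences can change direction with this choice.

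Of the 54 genes, 46 averaged 1 FPKM or more over both pools and are called measured. The other 8 had means of at most 0.277 FPKM: Gpx2, Gpx6 and Gsta1 were listed at 0 in both pools, Gsta2, Gstm3 and the pseudogene Gpx2-ps1 were listed at 0 in the Null pool, and Gpx5 and Gstt4 were above 0 in both. Gpx2 is the gastrointestinal glutathione peroxidase, and Gpx5 is a secreted enzyme of the epididymis. The measured genes summed to 9813 FPKM, 1.66% of the column, in Null and to 6908 FPKM, 1.36% of the column, in WT. Without Gpx3 the shares were 1.20% in Null and 1.15% in WT.

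Differences are given as log2((Null + 1)/(WT + 1)) of FPKM, a scale that understates the difference of low genes. As deposited, 35 of the 46 measured genes lay above 0, that is higher in Null, and 11 lay below, with a median log2 ratio of 0.17, against a median of 0.0056 over all 11597 genes measured. In bulk tissue, fewer cells of a type and less RNA per cell cannot be told apart. The share above 0 was 76.1% of the 46 genes and 50.6% of all genes. With both columns scaled to the same sum the median of the 46 genes was -0.026, and 22 of them, or 47.8%, were above 0, against 30.6% of all genes. There 35 of the 46 lay above the median of all genes. With quantile normalization, which gives both columns the same distribution, the median was 0.095 and 65.2% were above 0, against 49.7% of all genes. The 13 genes above 0 as deposited but below 0 with the same sums were Gss, Gsta4, Gstm1, Gstm2, Gstm7, Gsto2, Gstp1, Gstp2, Hmox1, Prdx3, Prdx6, Prdx6-ps1 and Txn2, and 5 of them, Gstm1, Gstp2, Prdx3, Prdx6 and Txn2, were also below 0 with quantile normalization. By 1.5-fold or more on this scale, 7 genes were higher in Null, which is 15.2% of the 46, against 7.87% of all genes measured, and 0 were lower, against 6.75% of all genes. With the same column sums 3 genes were higher, 6.52% against 4.05% of all genes, and 1 was lower, 2.17% against 14.0%. With quantile normalization 3 were higher, 6.52% against 7.29%, so that the share was then near that of all genes, and 0 were lower, against 6.99%. By 2-fold or more as deposited, 1 gene was higher, against 2.17% of all genes, and 0 were lower, against 1.65%. Abundant genes in general were more often higher in Null: of all 786 genes that averaged 100 FPKM or more over both pools, 22.3% were higher by 1.5-fold or more and 6.62% lower, and of the 18 antioxidant genes at that level 5, or 27.8%, were higher and 0 lower. The share among abundant antioxidant genes was thus near the share among abundant genes. The 7 genes were Gpx3, Gstt1, Gpx7, Gpx8, Mgst3, Gpx4 and Prdx2. Gpx4, at 0.60, and Prdx2, at 0.59, lay closest to the 1.5-fold line inside it, and Gstt2, at 0.53, and Prdx4, at 0.52, lay closest to it outside.

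**Figure D1:**
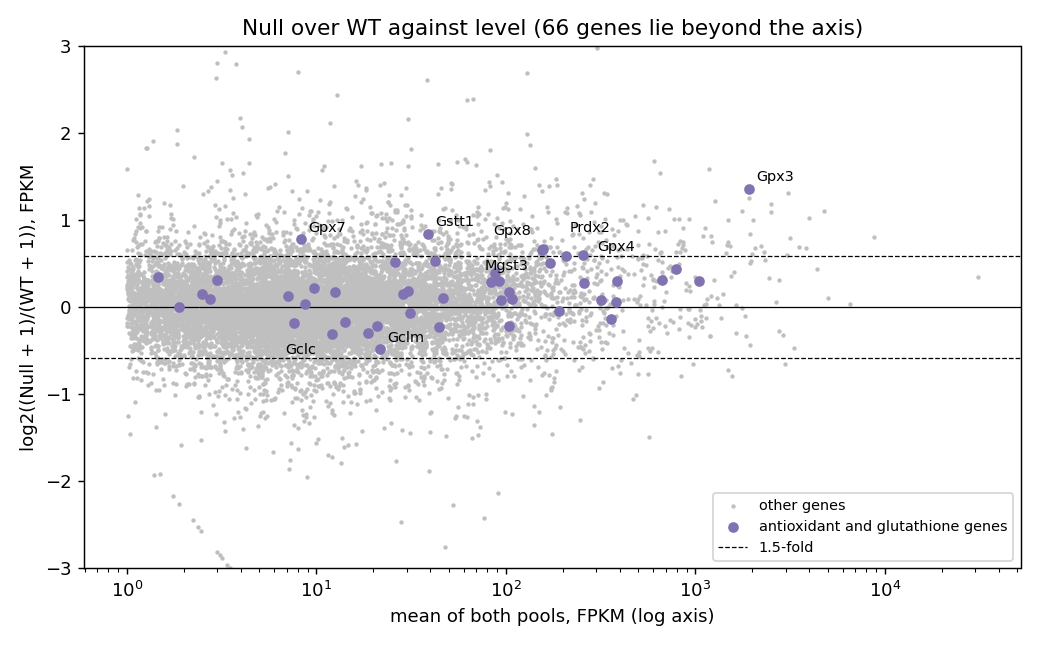
Log2 ratio of Null over WT (vertical axis, pseudocount of 1 FPKM) against the mean FPKM of both pools (horizontal log axis) for the 46 measured antioxidant and glutathione genes in purple and all other measured genes in grey. Dashed lines mark 1.5-fold. Gpx3, at 1.36, stands apart from the other purple points, which lie between -0.48 and 0.84, and 66 genes lie beyond the vertical axis.

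Gpx3 was the antioxidant gene that differed most. It encodes the secreted, plasma form of glutathione peroxidase, a selenoprotein. Gpx3 was at 2752 FPKM in the Null pool and 1071 FPKM in the WT pool, a log2 ratio of 1.36, and it was the most abundant of the 46 genes in both pools. Among all genes it held rank 19 in Null and rank 65 in WT. It alone made up 28.0% of the summed antioxidant FPKM in Null and 15.5% in WT. The ratio of Gpx3 to Gpx1, the main intracellular enzyme, was 6.48 in Null and 3.10 in WT, a comparison that a linear scaling of the columns leaves as it is.

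The other glutathione peroxidases were higher in Null as well. All 5 measured members lay above 0, with a median of 0.67, and remained above 0 with the columns scaled to the same sum (median 0.45) and with quantile normalization (median 0.49). Gpx4, which reduces peroxides within membrane lipids and is made in cytosolic and mitochondrial forms, was at 308 FPKM in Null and 203 FPKM in WT. Gpx1 was at 425 FPKM in Null and 345 FPKM in WT, a log2 ratio of 0.30. Gpx7 and Gpx8 sit in the endoplasmic reticulum and carry cysteine in place of selenocysteine. Gpx8 was at 194 FPKM in Null and 122 FPKM in WT, and Gpx7 at 10.8 FPKM in Null and 5.88 FPKM in WT, log2 ratios of 0.67 and 0.78. The enzymes with and without selenocysteine were thus both higher in Null.

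The 6 peroxiredoxin genes spanned a narrower range. Prdx5, a peroxiredoxin of mitochondria, peroxisomes and cytosol, was the most abundant at 912 FPKM in Null and 671 FPKM in WT, a log2 ratio of 0.44. Prdx2, a cytosolic form that is also abundant in red cells, was at 250 FPKM in Null and 166 FPKM in WT, and Prdx4, the form of the endoplasmic reticulum, at 31.0 FPKM in Null and 21.3 FPKM in WT. Prdx1 was at 283 FPKM in Null and 234 FPKM in WT, a log2 ratio of 0.27. The mitochondrial Prdx3 and the cytosolic Prdx6, which uses glutathione, hardly differed between the pools. Prdx3 was at 389 FPKM in Null and 374 FPKM in WT, a log2 ratio of 0.056, and Prdx6 at 112 FPKM in Null and 105 FPKM in WT. The processed copy Prdx6-ps1 was at 2.85 FPKM in Null and 2.62 FPKM in WT, and reads of a gene and such a copy may be shared. Taken with the glutathione peroxidases, 11 of 11 peroxidase genes other than pseudogenes were above 0 as deposited, with a median of 0.52. The share above 0 was 50.6% of all genes measured and 65.4% of those averaging 100 FPKM or more. With the same column sums 9 of the 11 were above 0, against 30.6% of all genes, and with quantile normalization also 9, against 49.7%. The exceptions in both settings were Prdx3 and Prdx6.

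The enzymes that recharge this system were on the other side. All 4 measured NADPH-dependent reductases were lower in Null. Their median log2 ratio was -0.17 as deposited, -0.37 with the same column sums and -0.13 with quantile normalization. The medians of all genes were 0.0056, -0.18 and -0.0021 in that order, and 50.6%, 30.6% and 49.7% of all genes lay above 0. None of the 4 reductases reached 1.5-fold in any of these settings. All 4 averaged under 100 FPKM, where the median of all genes was -0.0040 as deposited. For genes averaging 100 FPKM or more, which include most of the peroxidases, it was 0.18. Glutathione reductase Gsr was at 13.3 FPKM in Null and 15.0 FPKM in WT. Txnrd1, the cytosolic thioredoxin reductase, was at 30.4 FPKM in Null and 31.9 FPKM in WT, and Txnrd2, the mitochondrial one, at 40.8 FPKM in Null and 47.9 FPKM in WT, a log2 ratio of -0.23. Txnrd3, best known from testis, was at 7.09 FPKM in Null and 8.17 FPKM in WT. The differences were small for each gene and shared a direction. The thioredoxins themselves differed by compartment: Txn1 was at 201 FPKM in Null and 141 FPKM in WT, a log2 ratio of 0.51, and the mitochondrial Txn2 at 326 FPKM in Null and 307 FPKM in WT, a log2 ratio of 0.083 as deposited, -0.13 with the same column sums and -0.11 with quantile normalization.

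Glutathione synthesis held the lowest ratio of the 46 genes. Gclm, the modifier subunit of glutamate-cysteine ligase, was at 17.8 FPKM in Null and 25.3 FPKM in WT, a log2 ratio of -0.48. With the same column sums it was -0.69, past 1.5-fold. Gclc, the catalytic subunit of this rate-limiting enzyme, was at 10.7 FPKM in Null and 13.5 FPKM in WT, a log2 ratio of -0.31. Gss, glutathione synthetase, which completes the tripeptide, was at 30.2 FPKM in Null and 27.0 FPKM in WT. The ligase subunits were thus lower and the synthetase was not, as deposited.

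Superoxide dismutases and catalase were abundant, and none differed by 1.5-fold as deposited. Sod1 was at 735 FPKM in Null and 592 FPKM in WT, a log2 ratio of 0.31, and Sod2 at 188 FPKM in Null and 194 FPKM in WT, a log2 ratio of -0.041. Catalase, the peroxide-splitting enzyme of peroxisomes, was at 341 FPKM in Null and 375 FPKM in WT, a log2 ratio of -0.14. Sod3, the extracellular dismutase, was at 96.4 FPKM in Null and 112 FPKM in WT, a log2 ratio of -0.22. Of the secreted antioxidant enzymes measured, Gpx3 and Sod3 therefore lay in opposite directions.

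**Figure D2:**
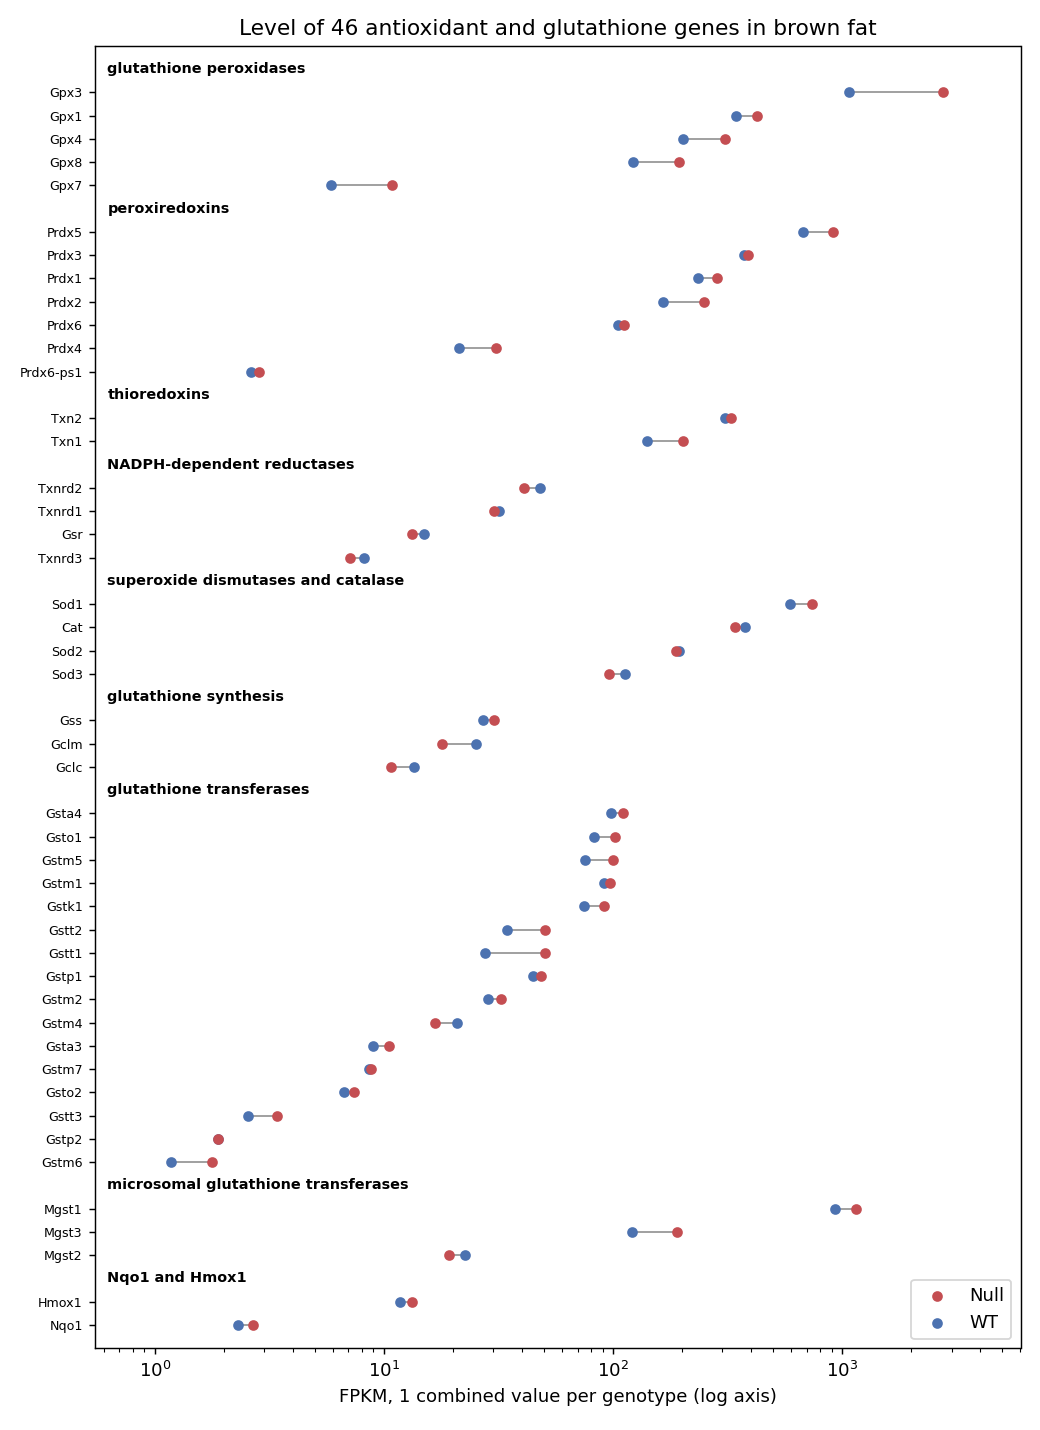
FPKM in the Null pool (red) and the WT pool (blue) for the 46 measured genes on a log axis, grouped by family, with a grey line joining both values of a gene. The red points lie right of the blue ones for all 5 glutathione peroxidases and left of them for all 4 NADPH-dependent reductases, and most glutathione transferases have both points close together.

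Glutathione transferases were the largest family, with 16 measured genes of the soluble and kappa classes. As deposited 15 were above 0 and the median log2 ratio was 0.20. With the same column sums 8 were above 0, the median was -0.00062, and 15 lay above the median of all genes. With quantile normalization 13 were above 0. The theta class differed most. Gstt1 was at 50.3 FPKM in Null and 27.6 FPKM in WT, a log2 ratio of 0.84. Its neighbours in the family, Gstt2, at 50.3 FPKM in Null and 34.6 FPKM in WT, and Gstt3, at 3.41 FPKM in Null and 2.56 FPKM in WT, had log2 ratios of 0.53 and 0.31. All 3 measured theta genes were therefore higher in Null.

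The mu, alpha, omega and pi classes lay closer to 0. Gsta4, which conjugates the lipid aldehyde 4-hydroxynonenal, was the most abundant transferase of the soluble classes, at 111 FPKM in Null and 98.0 FPKM in WT. Gstm5 was at 99.8 FPKM in Null and 75.8 FPKM in WT, Gstm1 at 96.6 FPKM in Null and 91.2 FPKM in WT, and Gsto1 at 102 FPKM in Null and 82.6 FPKM in WT. Gstk1, found in mitochondria and peroxisomes, was at 91.6 FPKM in Null and 74.6 FPKM in WT, and Gstp1 at 48.2 FPKM in Null and 44.9 FPKM in WT. Gstm4 was the one transferase lower in Null as deposited, at 16.7 FPKM in Null and 20.8 FPKM in WT. Gstm2 was at 32.4 FPKM in Null and 28.4 FPKM in WT, Gsta3 at 10.6 FPKM in Null and 8.95 FPKM in WT, and Gstm7 at 8.81 FPKM in Null and 8.61 FPKM in WT. The least abundant were Gsto2, at 7.43 FPKM in Null and 6.72 FPKM in WT, Gstp2, at 1.88 FPKM in both pools, and Gstm6, at 1.77 FPKM in Null and 1.17 FPKM in WT. Genes of the mu, pi and alpha classes are close copies of one another, and how reads shared between copies were counted is not given in the sources used here, so the split within these classes is uncertain.

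The membrane-bound transferases of the endoplasmic reticulum were led by Mgst1, the second most abundant of the 46 genes in the WT pool and in the Null pool. Mgst1 was at 1149 FPKM in Null and 932 FPKM in WT, a log2 ratio of 0.30. Mgst3 was at 191 FPKM in Null and 120 FPKM in WT, a log2 ratio of 0.66. Mgst2, which can also make leukotriene C4, was lower, at 19.3 FPKM in Null and 22.5 FPKM in WT, a log2 ratio of -0.21. Hmox1, the inducible haem oxygenase of the same membrane, was at 13.3 FPKM in Null and 11.7 FPKM in WT, and Nqo1, a quinone reductase, at 2.68 FPKM in Null and 2.31 FPKM in WT. Hmox1 and Nqo1, classic genes of the oxidative stress response, had log2 ratios of 0.17 and 0.15, and with the same column sums 1 of them was above 0.

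Sorted by place in the cell, the mitochondrial genes lay below the cytosolic ones by their medians. The 4 mitochondrial genes, Sod2, Prdx3, Txn2 and Txnrd2, summed to 943 FPKM in Null and 923 FPKM in WT, a ratio of 1.02, with a median log2 ratio of 0.0071 and a range of -0.23 to 0.083. The 26 cytosolic genes summed to 2739 FPKM in Null and 2218 FPKM in WT, a ratio of 1.23, with a median log2 ratio of 0.18 and a range of -0.48 to 0.84. With the same column sums both medians were below 0, at -0.011 for the cytosolic and -0.21 for the mitochondrial genes, and with quantile normalization the mitochondrial median was -0.17 and the cytosolic one 0.11. The difference between the medians, cytosolic minus mitochondrial, was 0.17 as deposited, 0.20 with the same column sums and 0.29 with quantile normalization. Without the glutathione transferases among the cytosolic genes it was 0.15 as deposited. The 4 genes assigned to both places, Gpx4, Prdx5, Gsr and Gstk1, had a median of 0.37 as deposited, 0.15 with the same column sums and 0.10 with quantile normalization, where it lay just below the cytosolic median. Gstk1 was put in this class by hand, although its product is found in mitochondria and peroxisomes. With these 4 genes counted as mitochondrial, the mitochondrial median was 0.069 and the difference between the medians 0.11 as deposited. The mitochondrial genes then summed to 2268 FPKM in Null and 1886 FPKM in WT, a ratio of 1.20, near the 1.23 of the cytosolic genes. The 5 genes of the secretory pathway or outside the cell, Gpx3, Gpx7, Gpx8, Prdx4 and Sod3, summed to 3084 FPKM in Null and 1332 FPKM in WT and had a median of 0.67, 0.45 with the same column sums and 0.51 with quantile normalization.

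**Figure D3:**
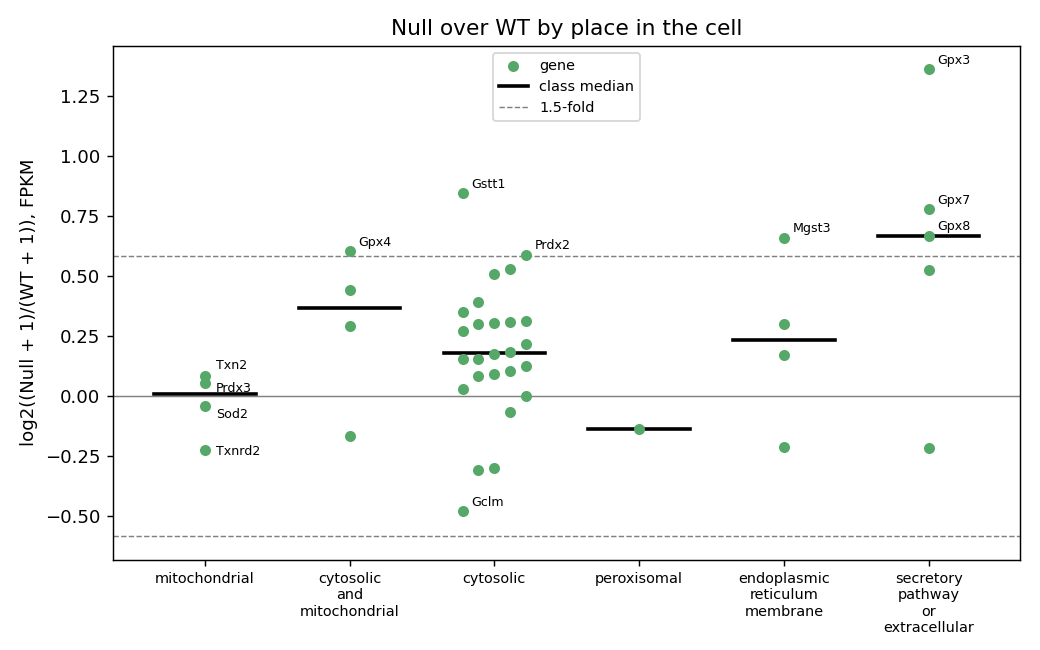
Log2 ratio of Null over WT (vertical axis, pseudocount of 1 FPKM) of each measured gene, by the place of its product in the cell, for 44 genes, since Txnrd3 and Prdx6-ps1 were not assigned a place. Black bars are class medians and dashed lines mark 1.5-fold. The mitochondrial genes lie between -0.23 and 0.083, and 3 of the 5 secretory or extracellular genes lie above the upper dashed line.

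Comparing a mitochondrial enzyme with a cytosolic enzyme of the same kind removes any linear scaling of the columns. In the 5 comparisons made, the cytosolic gene was higher relative to its mitochondrial partner in Null than in WT. Prdx6 was not set against Prdx3, and their log2 ratios, 0.092 and 0.056, were close. Prdx5, assigned to both places, was not used as a partner. Its log2 ratio of 0.44 lay above that of Prdx1, 0.27, and below that of Prdx2, 0.59. Sod1 stood to Sod2 as 3.91 to 1 in Null and as 3.06 to 1 in WT, a log2 difference of 0.35. The ratio of Prdx2 to Prdx3 was 0.642 in Null and 0.443 in WT, and that of Txn1 to Txn2 was 0.618 in Null and 0.459 in WT, log2 differences of 0.53 and 0.43. The ratio of Prdx1 to Prdx3 was 0.728 in Null and 0.626 in WT, and that of Txnrd1 to Txnrd2 was 0.744 in Null and 0.666 in WT, log2 differences of 0.22 and 0.16. With quantile normalization the 5 log2 differences were between 0.18 and 0.57. Prdx3 enters 2 of the 5 comparisons. In both pools Prdx3, Txn2 and Txnrd2 were more abundant per length than each single cytosolic gene set against them, and Sod2 was less abundant than Sod1.

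**Figure D4:**
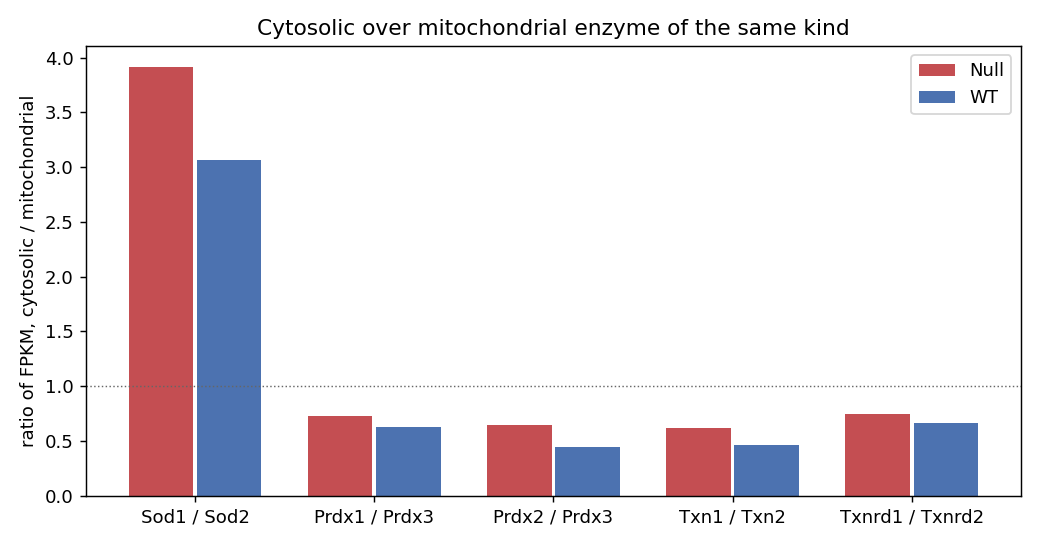
Ratio of FPKM of the cytosolic gene to the mitochondrial gene of the same kind (vertical axis) in the Null pool (red, left) and the WT pool (blue, right), with a dotted line at 1. The red bar is the taller one in each of the 5 comparisons, from 3.91 against 3.06 for Sod1 over Sod2 to 0.744 against 0.666 for Txnrd1 over Txnrd2.

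Genes that feed and govern these enzymes were described from lists drawn up by function. The transcription factor Nfe2l2, known as NRF2, switches on many antioxidant genes and is held back by Keap1 and by the repressor Bach1. Nfe2l2 was at 36.2 FPKM in Null and 37.9 FPKM in WT, Keap1 at 21.4 FPKM in Null and 26.3 FPKM in WT, and Bach1 at 5.77 FPKM in Null and 7.38 FPKM in WT. Of 11 regulators 10 were lower in Null, and 3 were lower and 0 higher by 1.5-fold or more, against 6.75% of all genes lower and 7.87% higher, with a median of -0.31, -0.50 with the same column sums. Those 3 were Maff, at 7.85 FPKM in Null and 16.7 FPKM in WT, Mafg, at 10.9 FPKM in Null and 18.9 FPKM in WT, and Foxo3, at 1.28 FPKM in Null and 3.22 FPKM in WT. Maff and Mafg encode small Maf proteins, the DNA-binding partners of NRF2 and of Bach1.

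Enzymes that supply NADPH were lower in Null in 11 of 12 cases, 3 of them by 1.5-fold or more against 6.75% of all genes, and 0 were higher by as much, against 7.87%, with a median of -0.26 (-0.46 with the same column sums, -0.38 with quantile normalization). Malic enzyme Me1 was at 230 FPKM in Null and 419 FPKM in WT, and Pgd and G6pdx, the dehydrogenases of the pentose phosphate pathway, were at 298 and 94.9 FPKM in Null and at 504 and 143 FPKM in WT. These 3 enzymes also serve fatty acid synthesis. Nnt, the mitochondrial transhydrogenase, of which the C57BL/6J substrain carries a known deletion, was at 2.73 FPKM in Null and 4.39 FPKM in WT. In the list of thiol redox partners 14 of 20 genes were higher, 1 by 1.5-fold or more against 7.87% of all genes, Txndc17, at 77.0 FPKM in Null and 49.6 FPKM in WT, and Srxn1, which repairs overoxidized peroxiredoxins, was at 34.5 FPKM in Null and 43.8 FPKM in WT. With the same column sums 9 of these 20 were above 0 and 13 above the median of all genes. Of 17 measured genes of glutathione supply and turnover 7 were higher and 10 lower, around a median of -0.0074. Only 1 gene, or 5.88%, was higher by 1.5-fold or more, against 7.87% of all genes, and 0 were lower by as much, against 6.75%. That gene was Chac2, which breaks glutathione down, at 20.6 FPKM in Null and 12.4 FPKM in WT. The cystine carrier gene Slc7a11 was below 1 FPKM in both pools.

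**Figure D5:**
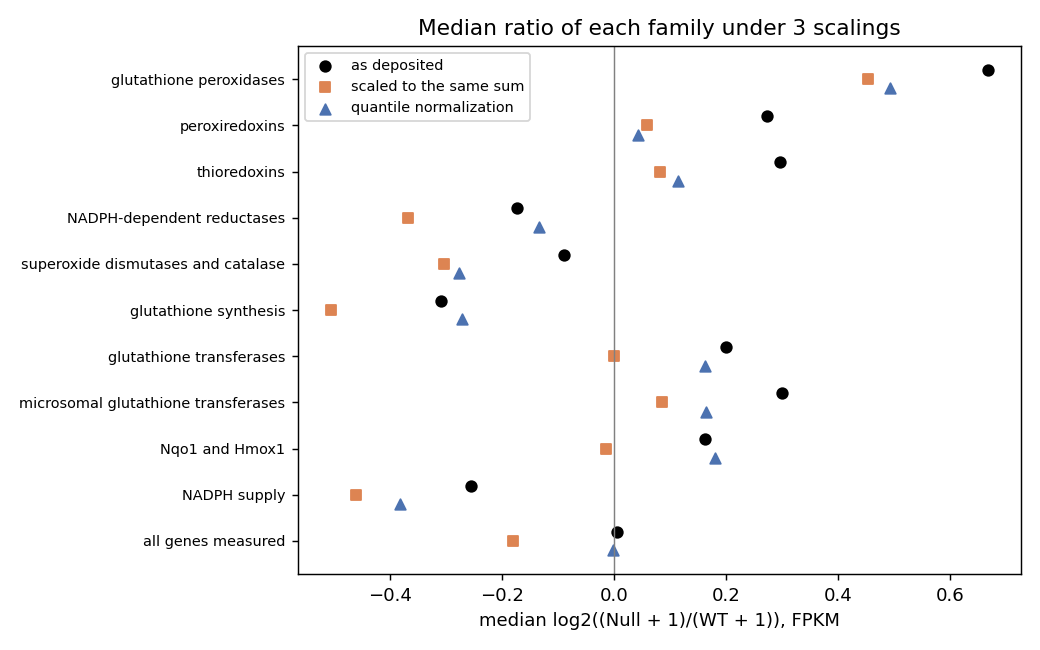
Median log2 ratio of Null over WT (horizontal axis, pseudocount of 1 FPKM) for each family of antioxidant genes, for the enzymes of NADPH supply and for all genes measured, as deposited (circles), with both columns scaled to the same sum (squares) and with quantile normalization (triangles). The glutathione peroxidases lie right of 0 in all 3 settings, between 0.45 and 0.67, and the reductases, glutathione synthesis and NADPH supply lie left of 0 in all 3.

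The order of the deposited table holds 1 further piece of information. Its first 727 genes stand in falling order of the ratio of Null to WT and the other 21825 follow by symbol, and the sources used here do not say what sets the leading genes apart. Of the 46 measured antioxidant genes 2 were among the leading genes, Gpx3 at place 59 and Gstt1 at place 255, against 6.25% of all genes measured. Gpx7, with a ratio of 1.84, was not among them although it exceeded the smallest upward ratio there, 1.64, as did 477 of all measured genes outside the leading part.

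In promoters, the core of the antioxidant response element that NRF2 binds was searched as TGACNNNGC on both strands, from 250 bases before to 50 after the start of each gene in the RefSeq table of build GRCm38.p6. The letters occurred in 12.4% of all 32851 promoters and for 17.4% of the measured genes with a promoter in the table. Of the 46 measured antioxidant genes 38 had a promoter there and 8 of the 38, or 21.1%, held a match: Gclm, Gsta3, Gstm5, Gstm7, Mgst1, Prdx1, Sod1 and Txnrd1. Gclc, Gsr, Gsta4, Gstt2, Hmox1, Prdx6, Prdx6-ps1 and Sod3 had no promoter there and were not searched. Sequence outside the window was not searched for any gene. A gene with several listed starts was counted if any of its promoters held the letters. The median log2 ratio was 0.24 for the 8 genes with a match and 0.24 for the genes searched without a match. Of the 8 matches 5 are printed, from Gclm with the lowest ratio of the 8 genes to Gstm5 with the highest, 5′ to 3′ on the strand on which the motif reads forward, with the motif in capitals and 20 bases on either side.
Gclm: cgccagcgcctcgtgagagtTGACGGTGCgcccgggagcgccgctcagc
Txnrd1: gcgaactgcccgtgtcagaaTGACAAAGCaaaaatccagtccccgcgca
Prdx1: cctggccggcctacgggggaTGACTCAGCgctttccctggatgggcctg
Sod1: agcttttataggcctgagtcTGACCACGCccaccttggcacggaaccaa
Gstm5: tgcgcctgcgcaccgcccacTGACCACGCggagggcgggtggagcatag
The Gclm stretch is chr3:122245403-122245451 on the minus strand, the Txnrd1 stretch chr10:82859094-82859142 on the minus strand and the Prdx1 stretch chr4:116685446-116685494 on the minus strand. The Sod1 stretch is chr16:90220686-90220734 on the minus strand and the Gstm5 stretch chr3:107895792-107895840 on the plus strand. The motif begins 134 bases before the start of Gclm and 92, 133, 56 and 42 bases before those of Txnrd1, Prdx1, Sod1 and Gstm5, counted along the gene. These genes had log2 ratios of -0.48, -0.068, 0.27, 0.31 and 0.39 in the same order. Txnrd1 has several listed starts, and its distance is from the only start whose promoter held the motif. A match describes the letters only and is not a measured binding site.

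Markers of other cell types differed between the pools beside these genes, and those said to lead a list had the highest mean of both pools. Of all genes measured, 50.6% were above 0 as deposited, and by 1.5-fold or more 7.87% were higher and 6.75% lower. Red cells are also rich in Prdx2, Gpx1 and Cat. Their markers summed over 4 measured of 8 listed genes to 469 FPKM in Null and 158 FPKM in WT, all 4 higher by 1.5-fold or more, led by Hba-a1 at 270.0 FPKM in Null and 96.4 FPKM in WT and Hbb-b2 at 119 FPKM in Null and 45.0 FPKM in WT. The haemoglobin genes are near-identical copies, and their split is uncertain. Below the minimum of 1 FPKM, Epb4.2 was at 0.159 FPKM in Null and 0.0794 FPKM in WT, and Slc4a1 at 0.0663 FPKM in Null and 0.0445 FPKM in WT. Fibroblast markers were higher in 7 of 8 cases, 3 of them by 1.5-fold or more, and 1 was lower by as much, Pi16 at 8.82 FPKM in Null and 17.5 FPKM in WT, with a sum of 498 FPKM in Null and 338 FPKM in WT, led by Dcn at 162 FPKM in Null and 121 FPKM in WT and Col3a1 at 137 FPKM in Null and 61.6 FPKM in WT. Macrophage markers were higher in 12 of 14 cases, 5 by 1.5-fold or more, with a sum of 253 FPKM in Null and 178 FPKM in WT, led by Lyz2 at 73.9 FPKM in Null and 55.9 FPKM in WT and C1qa at 32.9 FPKM in Null and 24.7 FPKM in WT. Muscle fibre markers were lower in 14 of 16 cases, 11 by 1.5-fold or more, with a sum of 2992 FPKM in Null and 4334 FPKM in WT, led by Tnni2 at 472 FPKM in Null and 655 FPKM in WT and Tnnt3 at 418 FPKM in Null and 596 FPKM in WT. Mylpf, the most abundant of them in the Null pool, was at 513 FPKM in Null and 481 FPKM in WT. As deposited the median log2 ratio was 1.43 for red cell, 0.45 for fibroblast, 0.39 for macrophage and -0.91 for muscle fibre markers. With the same column sums these medians were 1.22, 0.24, 0.18 and -1.13 in that order, and -0.18 for all genes measured. Hepatocyte markers, from a tissue rich in glutathione transferases, were low, with 2 of 7 measured, Apoa2 at 5.84 FPKM in Null and 0.101 FPKM in WT and Apoa1 at 2.07 FPKM in Null and 0.393 FPKM in WT, and with the defining gene Alb at 0.413 FPKM in Null and 0.340 FPKM in WT. Of the lymphocyte and neutrophil markers 2 each were measured, all 4 higher in Null: Cd52, at 33.6 FPKM in Null and 11.8 FPKM in WT, Cd79b, at 1.97 FPKM in Null and 0.356 FPKM in WT, S100a9, at 12.01 FPKM in Null and 2.23 FPKM in WT, and S100a8, at 4.83 FPKM in Null and 1.14 FPKM in WT. Endothelial markers had a median of 0.078 over 7 genes, -0.046 with the same column sums, with 0 past 1.5-fold, and were led by Cdh5, at 61.2 FPKM in Null and 61.0 FPKM in WT, and Pecam1, at 48.2 FPKM in Null and 46.8 FPKM in WT. Ribosomal protein genes, whose mRNAs are short like those of most peroxidases and thioredoxins, had a median log2 ratio of 0.90 over 64 genes. Transcript lengths are not in the files, and the part of cell makeup or transcript length in the antioxidant ratios was not tested.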

How the data were processed

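Per the file headers, the authors deposited mRNA values as FPKM in 1 column for each genotype. How they combined the 3 libraries is not given in the sources used here. Per the labels, the libraries were made from poly(A) RNA. The submitters' processing notes name CASAVA, TopHat, BWA, edgeR, DESeq and the build mm9, without versions or roles. The small RNA values, deposited as a signal headed RPM, served only to check the genotype. From the FPKM, log2((Null + 1)/(WT + 1)) was computed for the 11597 genes averaging 1 FPKM or more over both pools, with Python 3.11.15, numpy 2.4.6 and pandas 2.3.3, after the calculation was tested on simulated data. Genes past 1.5-fold were counted. The planned linear model over libraries needs a column per library and was not run, and lengths of proteins were not used here. Groups of genes are described by counts and medians beside those of all genes. Levels were named for every measured gene of the families, for genes past 1.5-fold in the lists by function, and for the most abundant genes of the marker lists. Other markers past 1.5-fold were not each named. Places in the cell were assigned by hand from general knowledge. The genes and lists were chosen with earlier results of these data known. Srxn1, Slc7a11, Nnt, Ucp1, Elovl3, Plin1, Pi16, Mylpf, Alb, Slc4a1 and Epb4.2 were named after their values were seen. Promoters and microRNAs came from RefSeq tables of GRCm38.p6. Alternatives were another pseudocount, other minimum levels, both columns scaled to the same sum, quantile normalization and centring. For the places in the cell, genes of both places were also counted as mitochondrial, and glutathione transferases were left out.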

Additional observations from a re-analysis of the deposited data

How the results depend on the processing

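The results depended mainly on how the columns were scaled. With both columns scaled to the same sum, the median log2 ratio was -0.026 for all antioxidant genes, -0.011 for the cytosolic and -0.21 for the mitochondrial ones, 3 genes were higher by 1.5-fold or more (Gpx3, Gpx7 and Gstt1), 6.52% against 4.05% of all genes, and 1 was lower (Gclm, -0.69), 2.17% against 14.0%. With quantile normalization the mitochondrial median was -0.17, the cytosolic minus mitochondrial difference 0.29 and the number higher by 1.5-fold 3, 6.52% against 7.29% of all genes, so the excess over all genes as deposited was not seen there. With genes of both places counted as mitochondrial, the cytosolic minus mitochondrial difference was 0.11 as deposited, and without glutathione transferases 0.15. With genes of both places so counted, the summed FPKM in Null over WT was 1.20 for mitochondrial genes, near the 1.23 for cytosolic ones. At 2-fold, 1 gene was higher, against 2.17% of all genes, and 0 were lower, against 1.65%. At 1.5-fold with the pseudocount of 0.1 FPKM, 7 of 46 genes were higher, against 10.3% of all, and 0 lower, against 9.15%. With no minimum, 7 of 54 were higher, against 4.27%, and 0 lower, against 3.57%. With a minimum mean of 5 FPKM, 7 of 41 were higher, against 8.40%, and 0 lower, against 7.03%. Centred on the median of all genes, 6 of 46 were higher, against 7.75%, and 0 lower, against 6.87%. Prdx2 was then at 0.58. No setting gave a gene past 1.5-fold the opposite sign. Gpx4, Gpx8, Mgst3 and Prdx2 were past 1.5-fold as deposited but at 0.39, 0.45, 0.45 and 0.37 with the same sums and at 0.44, 0.49, 0.49 and 0.43 with quantile normalization. No paired analysis was possible because the table holds 1 column per genotype. For the same reason no library could be left out. The spread between mice and the depth of the mRNA libraries are unknown, and no difference can be set against either.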

Other observations

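Among genes of haem, iron and metal handling, 10 of 11 were higher in the Null pool, 5 of them by 1.5-fold or more against 7.87% of all genes, with a median log2 ratio of 0.57 (0.35 with the same column sums, 0.34 with quantile normalization). The iron exporter Slc40a1 was at 14.2 FPKM in Null and 6.13 FPKM in WT, the transferrin receptor Tfrc at 42.3 FPKM in Null and 22.0 FPKM in WT, and Ftl1, the ferritin light chain, at 399 FPKM in Null and 220.0 FPKM in WT. Steap4, a metal reductase, was at 109 FPKM in Null and 68.4 FPKM in WT, and Blvrb, a biliverdin reductase, at 115 FPKM in Null and 73.4 FPKM in WT. The red cell markers, which include a haem synthesis gene, were higher in the same pool, and their part in these values was not tested.

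Selenoproteins outside the enzyme families and the genes that make selenocysteine had a median of 0.33 over 12 measured genes (0.11 with the same column sums, 0.19 with quantile normalization), with 3 higher by 1.5-fold or more, against 7.87% of all genes, and 2 lower, against 6.75%. Selm was at 27.0 FPKM in Null and 11.6 FPKM in WT, Selk at 114 FPKM in Null and 71.2 FPKM in WT, and Pstk, a kinase of selenocysteine synthesis, at 41.7 FPKM in Null and 24.9 FPKM in WT. Sepsecs, the enzyme after it in that pathway, was lower, at 5.21 FPKM in Null and 9.01 FPKM in WT, as was Dio2, a selenoprotein that activates thyroid hormone, at 9.05 FPKM in Null and 18.6 FPKM in WT. The genes of consecutive steps of selenocysteine synthesis, Pstk and Sepsecs, thus differed in opposite directions. Of 7 measured oxidant producers 2 were higher by 1.5-fold or more, against 7.87% of all genes, Cyba, a subunit of NADPH oxidase, at 24.7 FPKM in Null and 12.1 FPKM in WT, and Ncf4, another subunit, at 1.65 FPKM in Null and 0.634 FPKM in WT. Both are abundant in phagocytes, whose macrophage markers were higher in the same pool, and the part of those cells was not tested.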
